A study of Mus musculus with 8 samples.

Results

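The Gdf11 pathway was described here by 10 genes: the ligands Gdf11 and Mstn, the secreted inhibitors Wfikkn1, Wfikkn2, Fst and Fstl3, and the receptors Acvr2a, Acvr2b, Tgfbr1 and Acvr1b. They are 10 of the 55421 gene identifiers of the table and were chosen by name for their place in the pathway. The list was also selected on measured values, since the TPM levels of these genes in all 4 groups were known when it was drawn up, so the values are given as a description and without a test. Of the 10 genes, 8 passed the filter on low values, and Mstn and Wfikkn2 did not.

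Gdf11 and its close relative myostatin, the product of Mstn, are secreted ligands of the TGF-beta family that are made as precursors and cut by proteases. They bind a type II receptor, encoded by Acvr2a or Acvr2b, which recruits and activates a type I receptor, encoded by Tgfbr1 or Acvr1b. Activated Smad2 and Smad3 then enter the nucleus with Smad4. In the early embryo Gdf11 is known for timing the change from trunk to tail formation. The Wfikkn proteins bind Gdf11 and myostatin with high selectivity, while follistatin (Fst) and follistatin-like 3 (Fstl3) also bind activins.

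RNA was measured in wild-type and homozygous Gcnf-/- mouse embryos of 9 to 11 somites (E9.25). The gene Nr6a1 encodes Gcnf, a nuclear receptor without a known ligand. Embryos were divided into an anterior piece, which ended with the first pharyngeal arch, and a posterior piece, which began with the second arch. The 4 groups of 2 libraries were wild-type anterior and wild-type posterior, both numbered 153 and 156, and mutant anterior and mutant posterior, both numbered 159 and 163. No treatment is given in the labels, and they do not say what part of the gene was deleted or whether a group holds separate embryos, so the p-values below measure only the spread between these libraries.

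Between 27064114 and 52957990 reads per library fell in genes. Levels are given as TPM, reads per unit of transcript length that add up to the same total in each library. For a gene of 1 kb, 3 reads corresponded to 0.2 to 0.403 TPM, a floor that covers counting error only. Nr6a1 was between 116 and 240 TPM in all 8 libraries, which does not check the genotype labels because a mutant transcript may also be counted. The pieces were checked against their labelled regions with markers of posterior tissue. The 6 posterior markers (T, Cdx2, Tbx6, Hoxb9, Hoxc8 and Hoxa9) summed to 7.56 to 11.6 TPM in anterior libraries, 649 to 854 TPM in wild-type posterior and 456 to 498 TPM in mutant posterior libraries. They did not move together between the posterior groups. T and Tbx6 were higher in the mutant and Cdx2, Hoxb9, Hoxc8 and Hoxa9 lower, each without overlap. Hoxb9 had means of 255 TPM in the wild type and 65.8 TPM in the mutant. Both mutant libraries numbered 159 held Xist at 25.3 and 30.9 TPM, and the other 6 held Ddx3y of the Y chromosome, so sex was unequal between the genotypes.

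Other cell types also moved with the genotype. Summed levels of 8 primitive erythroid markers, the globins among them, were 4218 to 9872 TPM in wild-type and 22080 to 43850 TPM in mutant libraries. Of these markers 6 rose in the anterior and 4 in the posterior pieces, and none was at 0. Summed levels of 6 early neuron markers were 132 to 139 TPM in wild-type and 402 to 565 TPM in mutant anterior libraries, and 42.8 to 43.1 and 74.9 to 84.7 TPM in the posterior ones. All 6 rose in the anterior pieces and 4 in the posterior. The other 2 did not pass there: Dcx was higher in the mutant, and Stmn2 was lower, at 6.94 against 9.08 TPM, both without overlap. The 8 visceral endoderm markers summed to 2026 to 2450 TPM in wild-type posterior and 220 to 1039 TPM in mutant posterior libraries, with all 8 lower without overlap and 3 of the 8 past the threshold. The 5 endothelial markers summed to 218 TPM in both wild-type posterior libraries and to 285 and 302 TPM in the mutant ones, with 1 past the threshold. Pecam1, Cdh5 and Tie1 were higher there without overlap, while the libraries of Kdr and Tek overlapped. Heart muscle markers overlapped in the posterior pieces, at 470 to 1456 TPM in the wild type and 390 to 3385 TPM in the mutant. In whole tissue pieces, fewer cells of a type and less RNA per cell cannot be told apart. The part of these markers in the results below was not tested.

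Among the 10 genes, Wfikkn1 stood out by its low level in the mutant, and the receptor genes Acvr1b and Acvr2a were higher there, while the mutant means of Gdf11 were 1.075-fold and 0.822-fold of the wild type in the anterior and posterior pieces. Wfikkn1 reached 10.3% of its wild-type mean in the mutant anterior and 24.0% in the mutant posterior pieces. Acvr1b was 1.83-fold and 1.68-fold higher, and Acvr2a 1.33-fold and 1.36-fold higher, in the anterior and posterior pieces of the mutant. The other receptor genes, Tgfbr1 and Acvr2b, were the 2 most abundant transcripts of the 10 in every group.

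**Figure D1:**
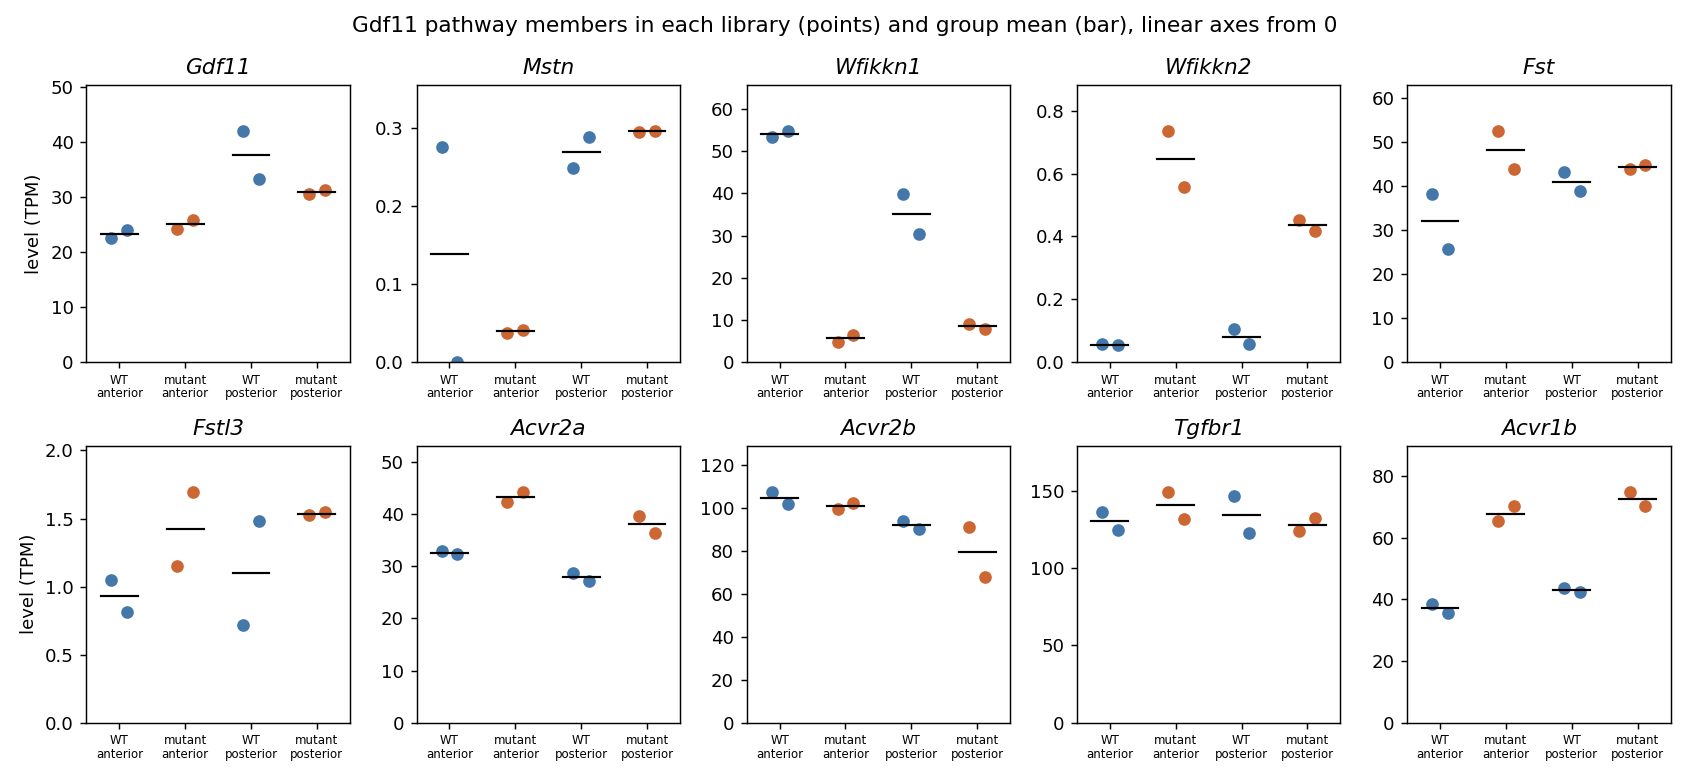
Level of each of the 10 genes in TPM (vertical axes, linear from 0) by group (horizontal axes), with each point a library and each bar the mean of 2 libraries, wild type in blue and mutant in orange. Both mutant points of Wfikkn1 lie between 4.80 and 9.08 TPM in each region, against 30.5 to 54.8 TPM in the wild type, and the mutant points of Acvr1b and Acvr2a lie above the wild-type points in both regions.

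The main ligand gene, Gdf11 (ENSMUSG00000025352; mm10 chromosome 10, 128882295 to 128891718, minus strand), was at 22.6 and 23.9 TPM in the wild-type anterior and 42.0 and 33.3 TPM in the wild-type posterior libraries. In the mutant it was at 24.3 and 25.8 TPM in the anterior and 30.5 and 31.4 TPM in the posterior libraries. Posterior libraries were thus above anterior libraries in both genotypes. The wild-type means were 37.7 ± 6.2 and 23.3 ± 0.93 TPM (SD, n = 2), a 1.62-fold higher posterior level. In the mutant they were 30.95 ± 0.63 and 25.0 ± 1.1 TPM. On the log2(TPM + 1) scale, which understates the change of low genes, posterior minus anterior was 0.66 ± 0.12 (standard error) in the wild type and 0.30 ± 0.12 in the mutant.

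Between genotypes the Gdf11 libraries did not overlap in either region, but the small differences had opposite signs. Both mutant anterior libraries were above both wild-type anterior libraries, by 0.10 ± 0.12 on the log2 scale. Both mutant posterior libraries were below both wild-type posterior libraries, by -0.27 ± 0.12. The posterior value rested on the spread of the wild-type libraries: it was -0.10 when library 153 of that group was left out and -0.43 when library 156 was.

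Mstn (ENSMUSG00000026100; chromosome 1, 53061640 to 53068079, plus strand), best known as a brake on muscle growth, was near the limit of detection. It had 7 and 0 reads in the wild-type anterior libraries, where 0 reads allowed up to 0.116 TPM, and 1 read in each mutant anterior library. In the posterior libraries it had 5 and 11 reads in the wild type and 12 and 7 in the mutant, and its highest level was 0.296 TPM. Pooled over libraries, the mutant posterior level was 7.54 times the mutant anterior level, with an exact 95% interval from 1.82 to 66.8 that covers counting error only. The mutant to wild-type ratio was 0.287 (0.0291 to 1.51) in the anterior and 1.07 (0.523 to 2.23) in the posterior pieces.

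Wfikkn1 (ENSMUSG00000071192; chromosome 17, 25877628 to 25880858, minus strand) encodes a secreted protein with several protease-inhibitor-like domains. Its level was 53.4 and 54.8 TPM in the wild-type anterior libraries and 4.80 and 6.36 TPM in the mutant anterior libraries. In the posterior libraries it was 39.8 and 30.5 TPM in the wild type and 9.08 and 7.76 TPM in the mutant. The genotypes did not overlap in either region, and the lowest wild-type value, 30.5 TPM, was well above the highest mutant value, 9.08 TPM. At least 121 reads supported each of the 8 values.

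The Wfikkn1 means were 54.1 ± 1.0 and 5.58 ± 1.1 TPM in the anterior pieces of wild type and mutant, a 9.69-fold lower mutant level (log2 difference -3.08 ± 0.16). The posterior means were 35.1 ± 6.6 and 8.42 ± 0.93 TPM, a 4.17-fold lower mutant level (-1.93 ± 0.16). Over all alternatives and left-out libraries the anterior difference stayed between -3.27 and -2.90 and the posterior between -2.12 and -1.74. The order of the regions was opposite in the 2 genotypes. In the wild type both posterior libraries were below both anterior ones (-0.62 ± 0.16), and in the mutant both were above (0.52 ± 0.16). The mutant value was 0.25 when both libraries numbered 159, the only ones with Xist, were left out. The difference between the anterior and posterior genotype effects was -1.15 ± 0.23.

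Wfikkn2 (ENSMUSG00000044177; chromosome 11, 94235956 to 94246005, minus strand), the paralog of Wfikkn1, was rare and higher in the mutant. It had 2 and 2 reads in the wild-type anterior, 28 and 19 in the mutant anterior, 3 and 3 in the wild-type posterior and 26 and 14 in the mutant posterior libraries. Its levels were 0.0545 to 0.105 TPM over the 4 wild-type libraries and 0.419 to 0.736 TPM over the 4 mutant libraries, without overlap. The pooled mutant to wild-type ratio was 11.8 in the anterior pieces (exact 95% counting interval 4.32 to 45.1, 47 against 4 reads) and 6.03 in the posterior (2.54 to 17.4, 40 against 6 reads). Per unit length, Wfikkn2 in the mutant anterior libraries was 15.3% and 8.74% of the Wfikkn1 level, so both Wfikkn genes together remained well below the wild-type level of Wfikkn1.

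Fst (ENSMUSG00000021765; chromosome 13, 114452290 to 114458951, minus strand) encodes follistatin, which binds activins, Gdf11 and myostatin. It was at 38.2 and 25.7 TPM in the wild-type anterior and 52.5 and 43.9 TPM in the mutant anterior libraries, a log2 difference of 0.60 ± 0.17 without overlap. The size of this difference depended on single wild-type anterior libraries: it was 0.88 without library 153 and 0.32 without library 156. Its posterior levels were 43.1 and 38.9 TPM in the wild type and 43.8 and 44.8 TPM in the mutant (0.11 ± 0.17).

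Fstl3 (ENSMUSG00000020325; chromosome 10, 79777272 to 79782630, plus strand), which encodes the other follistatin-type inhibitor, was low in every group. It was at 1.05 and 0.811 TPM in the wild-type anterior, 1.15 and 1.70 in the mutant anterior, 0.715 and 1.48 in the wild-type posterior and 1.52 and 1.55 in the mutant posterior libraries. The log2 differences between genotypes were 0.32 ± 0.23 and 0.30 ± 0.23, and the posterior one was 0.03 without wild-type library 153 and 0.56 without library 156. Its exons share 47.3% of their bases with the antisense gene Prss57, whose reads this protocol could not separate by strand and which reached at most 0.0234 TPM.

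Set side by side per unit length, Wfikkn1 held a smaller share of the inhibitor genes in the mutant in both regions. Wfikkn1 made up 57.6% and 67.4% of the summed level of the 4 inhibitor genes in the wild-type anterior libraries and 8.11% and 12.1% in the mutant anterior libraries. Its share in the posterior pieces was 47.6% and 43.0% in the wild type and 16.6% and 14.2% in the mutant. Fst made up 41.2% and 31.6% of the sum in the wild-type anterior libraries, 51.5% and 54.8% in the wild-type posterior libraries and between 79.8% and 88.7% in the 4 mutant libraries. It was thus already the larger part in the wild-type posterior pieces.

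The summed inhibitor level was 92.7 and 81.4 TPM in the wild-type anterior and 59.2 and 52.6 TPM in the mutant anterior libraries. In the posterior libraries it was 83.7 and 70.9 TPM in the wild type and 54.8 and 54.5 TPM in the mutant, so the 4 mutant sums were below the 4 wild-type sums. Relative to Gdf11, Wfikkn1 took 3 levels over the libraries. The ratio was 2.36 and 2.29 in the wild-type anterior, 0.947 and 0.914 in the wild-type posterior, and between 0.198 and 0.298 in the 4 mutant libraries.

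**Figure D2:**
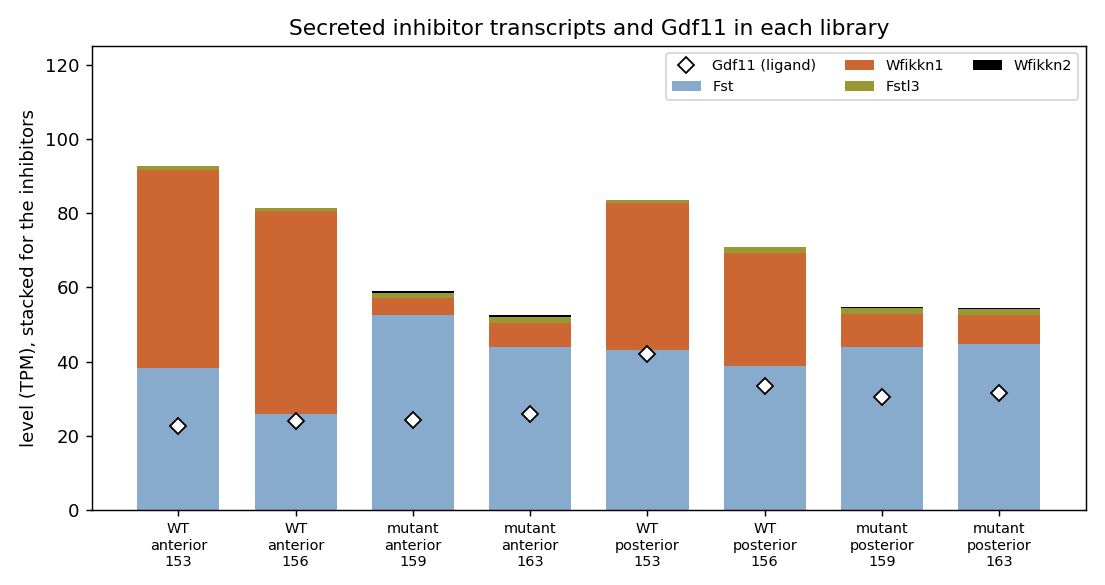
Summed level in TPM of the 4 inhibitor genes (stacked bars from 0) and level of Gdf11 (diamonds) in each of the 8 libraries. The Wfikkn1 part of the bar is large in the 4 wild-type libraries (30.5 to 54.8 TPM) and small in the 4 mutant libraries (4.80 to 9.08 TPM), while the Fst part is between 25.7 and 52.5 TPM throughout.

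Both type II receptor genes were expressed in every library, and the 2 behaved differently between genotypes. Acvr2a (ENSMUSG00000052155; chromosome 2, 48814109 to 48903269, plus strand) was at 32.9 and 32.3 TPM in the wild-type anterior and 42.4 and 44.3 TPM in the mutant anterior libraries. In the posterior libraries it was at 28.7 and 27.2 TPM in the wild type and 39.8 and 36.4 TPM in the mutant. All 4 mutant values were above all 4 wild-type values, and the log2 differences were 0.40 ± 0.10 and 0.43 ± 0.10. Of its exon bases 7.84% are shared with the antisense gene Orc4, which reached at most 34.9 TPM.

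Acvr2b (ENSMUSG00000061393; chromosome 9, 119402118 to 119434995, plus strand), whose product is a main type II receptor of Gdf11 in axial patterning, was more abundant than Acvr2a per unit length in every library. Its anterior means were 104 ± 4.2 TPM in the wild type and 101 ± 1.7 TPM in the mutant, with overlapping libraries. The posterior values were 93.9 and 89.9 TPM in the wild type and 91.0 and 67.5 TPM in the mutant, which also overlapped. The posterior difference of -0.23 ± 0.13 came from the lower mutant library: it was -0.01 without mutant library 163 and -0.44 without library 159. The ratio of Acvr2a to Acvr2b was 0.302 to 0.319 in the wild-type and 0.426 to 0.540 in the mutant libraries, without overlap.

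The type I receptor genes showed the same kind of contrast. Acvr1b (ENSMUSG00000000532; chromosome 15, 101174067 to 101213684, plus strand), which encodes Alk4, was at 38.5 and 35.7 TPM in the wild-type anterior and 65.3 and 70.2 TPM in the mutant anterior libraries. In the posterior libraries it was at 43.8 and 42.5 TPM in the wild type and 74.8 and 70.1 TPM in the mutant. The 4 mutant values were all above the 4 wild-type values, with log2 differences of 0.85 ± 0.09 and 0.74 ± 0.09. Over all alternatives these stayed between 0.80 and 0.91 in the anterior and between 0.67 and 0.78 in the posterior pieces.

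Tgfbr1 (ENSMUSG00000007613; chromosome 4, 47353222 to 47414931, plus strand), which encodes Alk5, was the most abundant of the 10 transcripts, at 123 to 150 TPM over the 8 libraries. Genotypes overlapped in both regions, with log2 differences of 0.10 ± 0.12 and -0.07 ± 0.12. The ratio of Acvr1b to Tgfbr1 was 0.282 to 0.346 in the wild-type and 0.437 to 0.604 in the mutant libraries, without overlap. Because all of these levels were measured with reads summed over a gene, they do not separate transcript forms.

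Ordered by level, Tgfbr1 and Acvr2b were the highest in each group, although the libraries of Acvr2b and Acvr1b overlapped in the mutant posterior group. Wfikkn1 was the third in the wild-type anterior and the sixth in the wild-type posterior pieces, where its libraries overlapped those of Gdf11. In both mutant groups it was the seventh, above Fstl3 and below Gdf11, without overlap with either. Fst and Acvr2a overlapped in both anterior groups. In the wild-type posterior group Acvr1b, Fst and Gdf11 each overlapped the next gene in the order.

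Counted against the whole table, 4 of the 8 tested members passed the threshold (adjusted p below 0.05, limma) for the genotype difference in the anterior pieces, where 23.6% of all 16699 genes tested did (13.3% higher and 10.2% lower). These were Fst, Acvr2a and Acvr1b, higher in the mutant, and Wfikkn1, lower. The count was 2 without mutant anterior library 159, without library 163 or without wild-type anterior library 156. In the posterior pieces 3 of 8 passed, Acvr2a and Acvr1b higher and Wfikkn1 lower, against 11.5% of all genes (8.56% higher and 2.93% lower). For the difference of the genotype effects 0 of 8 passed in limma, against 1.01% of all genes, and 1 had an unadjusted p below 0.05, and 1 passed with the filter at 5 TPM.

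Libraries of the genotypes did not overlap for 6 of the 8 in the anterior pieces, against 67.3% of all genes, and for 6 of 8 in the posterior, against 53.2%. For the region difference, 2 of 8 passed in the wild type, Gdf11 higher and Wfikkn1 lower in the posterior, against 14.5% of all genes (7.86% higher and 6.65% lower). The count was 1 without either wild-type anterior library or without wild-type posterior library 156, with no filter, and with the library number as a block. In the mutant 0 of 8 passed in limma, against 16.1%, with 3 at an unadjusted p below 0.05, and 1 passed when mutant posterior library 159 or both libraries numbered 159 were left out or the filter was at 5 TPM, and 2 under median-of-ratios scaling. Libraries of the regions did not overlap for 6 of 8 in the wild type, against 63.1% of all genes, and for 4 of 8 in the mutant, against 52.1%. The members were chosen with these contrasts known, so nothing is read from the counts.

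**Figure D3:**
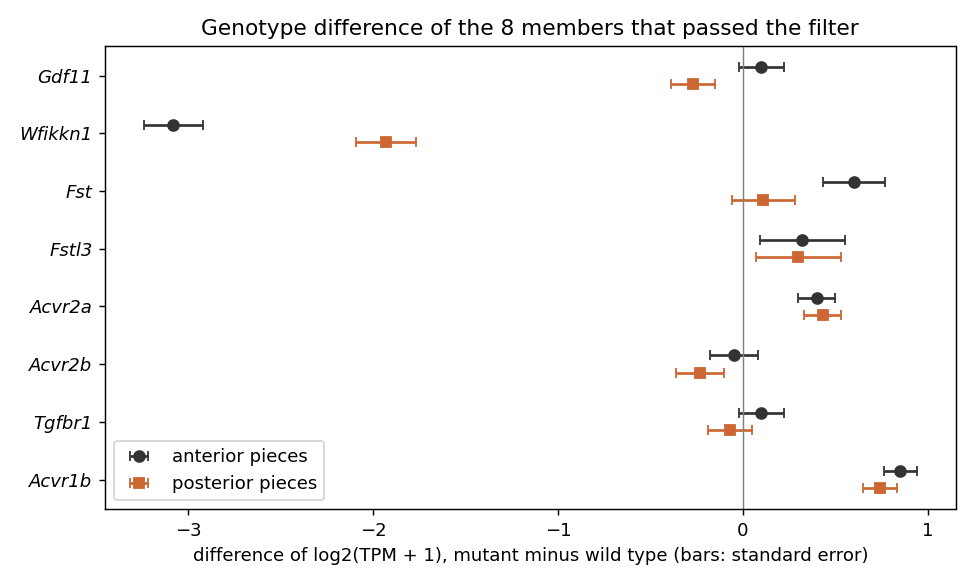
Genotype difference (mutant minus wild type, log2(TPM + 1), horizontal axis) of the 8 members that passed the filter, in anterior (circles) and posterior pieces (squares), with bars of 1 standard error. Wfikkn1 lies at -3.08 and -1.93, Acvr1b at 0.85 and 0.74, and Gdf11 at 0.10 and -0.27.

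Wfikkn1 was lower, and Acvr1b, Acvr2a and Wfikkn2 were higher, in all 4 mutant libraries than in any wild-type library. The sequence before the annotated start is shown for 2 of these genes, Wfikkn1 and Acvr1b. Both are the 250 bases ahead of the start in RefSeq (GRCm38.p6), Wfikkn1 at chr17:25880859-25881108 on the minus strand and Acvr1b at chr15:101173822-101174071 on the plus strand. They are written 5′ to 3′, with CG dinucleotides in capitals.
Wfikkn1: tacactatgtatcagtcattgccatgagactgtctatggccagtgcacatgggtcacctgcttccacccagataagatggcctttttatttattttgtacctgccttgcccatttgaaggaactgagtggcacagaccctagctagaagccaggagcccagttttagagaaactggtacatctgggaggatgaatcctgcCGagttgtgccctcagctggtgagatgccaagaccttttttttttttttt
Acvr1b: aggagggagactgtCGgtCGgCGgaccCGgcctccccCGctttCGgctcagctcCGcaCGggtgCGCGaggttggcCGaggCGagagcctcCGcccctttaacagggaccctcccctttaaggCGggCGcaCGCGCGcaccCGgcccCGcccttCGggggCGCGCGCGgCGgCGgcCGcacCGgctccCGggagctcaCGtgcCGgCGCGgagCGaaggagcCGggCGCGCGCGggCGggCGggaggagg

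The Wfikkn1 window had 46.4% G and C and 1 CG dinucleotide, and the Acvr1b window 78.8% and 42. Over 32851 RefSeq windows of the same length the medians were 52.4% and 6. Of all windows 29.83% had a G and C content at or below that of Wfikkn1. Among the other members, Gdf11 had 81.2% and 33, Acvr2a 82.0% and 49, Mstn 38.4% and 3, and Wfikkn2 59.6% and 3. The Wfikkn2 window lay inside the gene coordinates given above, 3426 bases from the GENCODE start. As 128 of its bases were in annotated exons, it is not upstream sequence of the whole gene. Fstl3, Acvr2b and the first start of Tgfbr1 had 71.2% to 74.8% and 22 to 29, and the second start of Tgfbr1 52.8% and 3. In total, 9 of the 10 genes had a window. Fst had no entry.

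Nr6a1 binds the nuclear receptor half-site AGGTCA as a direct repeat without a spacer, or as an extended half-site, with TCA just before it. Searched on both strands, the direct repeat was found in 2 of the 32851 windows (0.00609%), the extended half-site in 0.387% and the half-site alone, which lies within both, in 14.0%. Of the members' windows, Fstl3 alone held AGGTCA, and none held a longer form. The Smad box core CAGACA, found in 17.1% of all windows, was in those of Mstn and Fstl3 and in the second annotated start of Tgfbr1. A match is only a run of letters, and the absence of one says nothing of sites elsewhere.

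The rest of the pathway was followed in 80 further genes in 7 lists, of which 69 passed the filter on low values and were tested. In the anterior pieces 12 rose and 7 fell in the mutant (27.5% of those tested, against 23.6% of all genes), and the median difference was 0.08, against 0.02 over all genes. In the posterior pieces 20 rose and 6 fell (37.7%, against 11.5% of all genes), with a median of 0.30 against 0.05. The trunk-to-tail list held 11 of these 26 posterior calls. Because the lists were chosen with earlier results of these data known, nothing is read from these shares. The anterior count of 19 was 11 without mutant anterior library 163 and 9 without either wild-type anterior library. The posterior count of 26 was 10 when library 153 of the wild-type posterior group was left out and 13 when library 156 was. Over all genes 74.5% of the posterior calls were rises, and 55.2% of 2510 calls under median-of-ratios scaling. The genotype comparisons of the 2 regions use separate libraries, and each region comparison reuses them. All adjusted p-values below are from limma with Benjamini-Hochberg adjustment over all genes tested, and they do not allow for the choice of the lists.

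Intracellular Smads and their partners made up 15 genes, of which 4 rose and 1 fell in the anterior and 3 rose and 0 fell in the posterior pieces. Skil of this list was at 11.4 and 9.23 TPM in wild-type and 6.38 and 7.28 TPM in mutant anterior libraries. Its posterior libraries overlapped. Pmepa1, a Smad-binding inhibitor and a known target of the pathway, rose in both. It was at 0.542 and 0.340 TPM in wild-type and 3.30 and 4.31 TPM in mutant anterior libraries (1.73 ± 0.18, adjusted p = 0.00049). In the posterior libraries it was at 1.01 and 1.04 TPM in the wild type and 3.75 and 4.08 TPM in the mutant (1.28 ± 0.18, adjusted p = 0.0038). Foxh1, the DNA-binding partner of activated Smad2, rose in the anterior pieces from 21.4 ± 3.4 to 74.1 ± 9.1 TPM (SD, n = 2 each; 1.75 ± 0.30, adjusted p = 0.0045). In the posterior pieces its libraries overlapped (adjusted p = 0.21), and the test of the difference between the regions gave an adjusted p of 0.31.

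The central Smads had no genotype difference that passed in either region. Smad4 was at 196 ± 0.30 and 209 ± 1.2 TPM in the anterior pieces of wild type and mutant (adjusted p = 0.52). Smad3 was at 97.3 ± 2.9 and 112 ± 7.6 TPM (adjusted p = 0.27), and Smad2 at 42.9 ± 1.6 and 45.1 ± 2.0 TPM (adjusted p = 0.68). Smad7, an inhibitory Smad induced by the pathway, was at 6.60 ± 0.26 and 10.1 ± 1.8 TPM in the anterior pieces (0.54 ± 0.15, adjusted p = 0.03). That call was lost with no filter (adjusted p = 0.075), without mutant anterior library 163 (adjusted p = 0.17), without wild-type anterior library 153 (0.11) or 156 (0.14), and without either wild-type posterior library (0.051 each). Smad7 in the posterior pieces was at 11.95 ± 0.25 and 17.8 ± 2.4 TPM (adjusted p = 0.051).

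Among the other ligands, 7 of 13 genes were tested, with 1 rise in the anterior and 5 rises in the posterior pieces. Nodal, the ligand of gastrulation and left-right patterning, rose in the posterior pieces from 0.883 ± 0.43 to 3.95 ± 0.88 TPM (1.40 ± 0.23, adjusted p = 0.0074), a call that was lost (adjusted p = 0.073) when library 153 of the wild-type posterior group was left out. With a pseudocount of 0.1 the difference was 2.10 and did not pass (adjusted p = 0.057). Tgfb2 rose there from 24.0 ± 0.92 to 41.3 ± 5.0 TPM (0.76 ± 0.13, adjusted p = 0.0093), and that call was lost without library 153 (0.087) or 156 (0.056) of the same group. Inhbb, which encodes an activin subunit, did not pass the filter, with means of 0.0371 and 0.675 TPM in the anterior and 0.0910 and 0.791 TPM in the posterior pieces of wild type and mutant.

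Of 6 tested genes for proteases that act on the precursors, 2 fell in the anterior pieces and 0 changed in the posterior, where 2 had an unadjusted p below 0.05 in limma. Bmp1, whose family frees Gdf11 from its latent complex, fell in the anterior pieces from 16.4 ± 1.5 to 11.7 ± 0.96 TPM (-0.46 ± 0.12, adjusted p = 0.025). The call was lost without any 1 of the 4 anterior libraries, with adjusted p between 0.053 and 0.19, without both libraries numbered 159 (0.097) and with no filter (0.051). Pcsk5, the convertase that cuts the Gdf11 precursor in the embryo, did not differ past the threshold between genotypes (adjusted p = 0.8 and 0.36). It differed by region as Gdf11 did, rising in wild-type posterior over anterior pieces from 1.75 ± 0.28 to 4.55 ± 0.30 TPM (1.01 ± 0.16, adjusted p = 0.0028). In the mutant it rose from 1.88 ± 0.086 to 3.70 ± 0.14 TPM (0.71 ± 0.16, adjusted p = 0.015), a call lost without mutant anterior library 159 (adjusted p = 0.074) or 163 (0.055) or mutant posterior library 163 (0.074), without both libraries numbered 159 (0.095) and with no filter (0.055). Furin, a related convertase, did not differ past the threshold between genotypes, at 21.2 ± 2.1 and 18.0 ± 2.9 TPM in the anterior (adjusted p = 0.22) and 32.5 ± 0.38 and 38.8 ± 0.73 TPM in the posterior pieces of wild type and mutant (adjusted p = 0.24). Furin too was higher in the posterior pieces, by 0.60 ± 0.13 in the wild type (adjusted p = 0.014) and 1.08 ± 0.13 in the mutant (adjusted p = 0.00059). The wild-type call was not kept in every fit that left out a library, and the difference was 0.50 without wild-type anterior library 156.

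Among 10 tested genes for other extracellular binding proteins and decoys, 2 rose in the anterior, and 2 rose and 1 fell in the posterior pieces. Dcn, which encodes the matrix proteoglycan decorin, rose in the posterior from 3.42 ± 0.17 to 11.4 ± 3.7 TPM (1.46 ± 0.20, adjusted p = 0.0034). Bambi, a pseudoreceptor without kinase activity, rose there from 41.5 ± 1.1 to 83.4 ± 9.8 TPM (0.99 ± 0.14, adjusted p = 0.0034). Cer1, a secreted inhibitor of Nodal and Bmp, fell from 14.3 ± 0.52 to 1.61 ± 0.32 TPM (-2.55 ± 0.17, adjusted p = 0.00012). Of 8 tested genes for other receptors, 0 passed in the anterior pieces in limma, with 2 at an unadjusted p below 0.05, and Eng and Cfc1 rose in the posterior. Eng, an endothelial co-receptor gene, rose from 24.9 ± 2.1 to 47.8 ± 4.0 TPM (0.91 ± 0.21, adjusted p = 0.03), beside the higher endothelial marker sums given above, and the call was lost without mutant posterior library 163 (0.09) or without wild-type library 153 (0.19) or 156 (0.11), and with no filter (0.11).

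**Figure D4:**
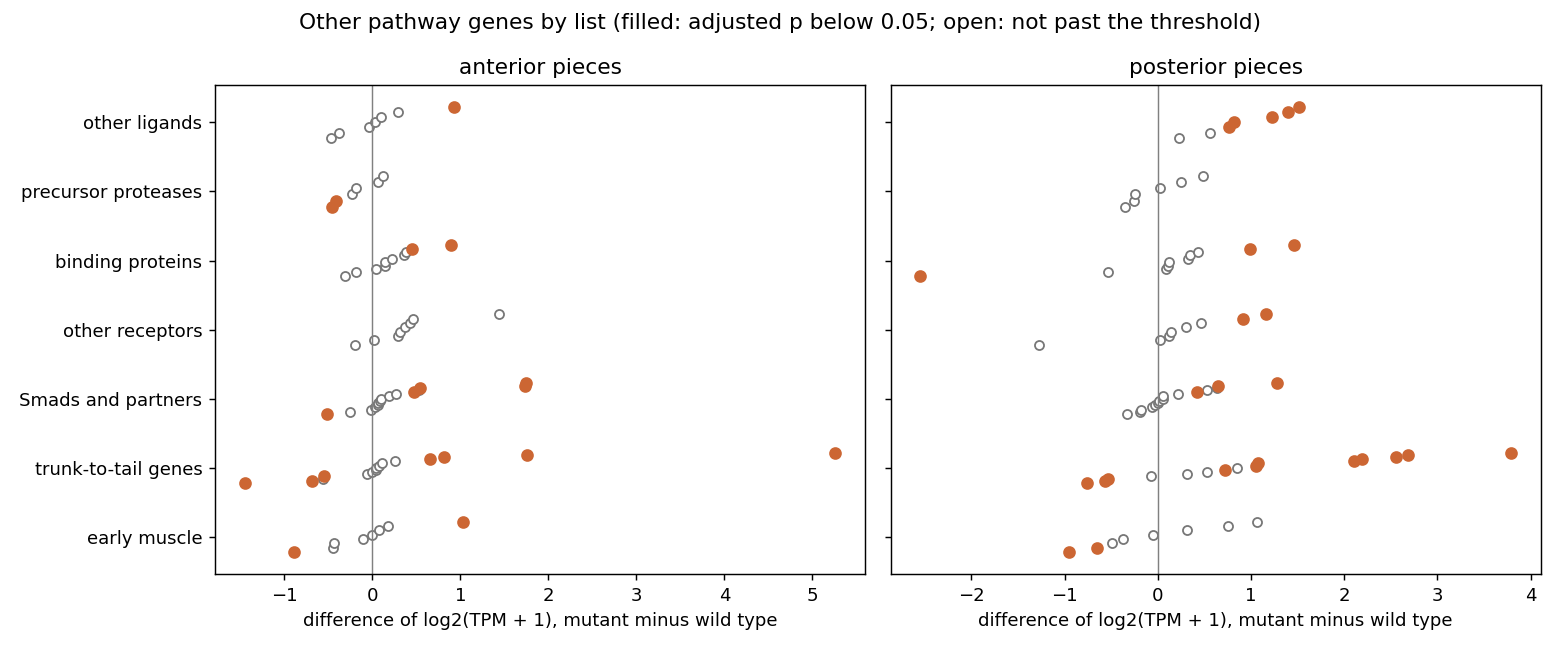
Genotype difference (mutant minus wild type, log2(TPM + 1), horizontal axes) of the 69 tested genes of the 7 pathway lists in anterior (left) and posterior pieces (right), with each point a gene, filled where the adjusted p was below 0.05. Filled points number 19 in the anterior and 26 in the posterior panel.

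Genes of the trunk-to-tail change numbered 15, all tested. They include responders to Gdf11 and the retinoic acid enzymes, and also Pou5f1, Lin28a and Lin28b. In the anterior pieces 4 rose and 3 fell, and in the posterior 8 rose and 3 fell. Pou5f1 rose in the anterior pieces from 1.88 ± 0.095 to 111 ± 23 TPM (5.26 ± 0.16, adjusted p = 2.9e-06). Its posterior rise was from 4.06 ± 0.16 to 69.6 ± 11 TPM (3.79 ± 0.16, adjusted p = 1.5e-05). Cyp26a1, which degrades retinoic acid, rose in the anterior pieces from 21.2 ± 1.1 to 74.9 ± 17 TPM (1.76 ± 0.15, adjusted p = 0.00019). The posterior means were 56.4 ± 3.4 TPM in the mutant and 84.1 ± 6.0 TPM in the wild type, and the difference between the regions' genotype effects was 2.32 ± 0.21 (adjusted p = 0.0033). Aldh1a2, which makes retinoic acid, fell in the anterior pieces from 36.5 ± 3.2 to 13.3 ± 6.1 TPM (-1.45 ± 0.24, adjusted p = 0.0038). Its posterior libraries lay the other way, at 266 and 282 TPM in the wild type and 525 and 467 TPM in the mutant, without overlap (0.85 ± 0.24, adjusted p = 0.053). Tbx4, a hindlimb gene whose onset depends on Gdf11, rose in the posterior pieces from 8.56 ± 0.63 to 60.9 ± 7.7 TPM (2.69 ± 0.16, adjusted p = 7.2e-05).

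Early muscle genes, the later target tissue of myostatin, had 8 tested of 10, with 1 rise and 1 fall in the anterior and 2 falls in the posterior pieces. In the anterior pieces Pax3 rose from 24.8 ± 2.5 to 51.8 ± 4.8 TPM (1.03 ± 0.11, adjusted p = 0.00058), and Pax7 fell from 22.7 ± 0.85 to 11.8 ± 1.0 TPM (-0.89 ± 0.13, adjusted p = 0.0025). Both also mark the dorsal neural tube. The somite markers summed to 326 to 401 TPM in wild-type and 283 to 320 TPM in mutant posterior libraries, and 0 of 5 passed there in limma, with 0 at an unadjusted p below 0.05.

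Across the 8 libraries, the genes whose log2(TPM + 1) values followed a member most closely were named by Pearson's r, out of 11663 genes with a mean of at least 2 TPM. These libraries share the genotype and region contrasts, so many genes have a high r, which is given as a description. For Gdf11 they were Cdhr1 (r = 0.971), Art5 (0.97), Gnal (0.965), Fndc5 (0.958) and Ripply2 (0.955), all highest in the wild-type posterior group. For Wfikkn1 they were Hyou1 (0.992), Hsph1, Pinx1 and Arrdc4 (0.991 each) and Klhdc4 (0.99). Hyou1 was at 182 and 91.6 TPM in the anterior and 153 and 102 TPM in the posterior pieces of wild type and mutant. For Wfikkn2 they were Mt2 and Cish (0.99 each), Mt1 and Cbfa2t2 (0.988 each) and Aldh6a1 (0.986). The metallothionein gene Mt2 was at 24.9 and 277 TPM in the anterior and 27.4 and 161 TPM in the posterior pieces.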

How the data were processed

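Poly-A RNA from 8 libraries of mouse embryo pieces was sequenced without strand information, per the labels' protocols. The authors deposited 1 table of TPM values with 55421 gene identifiers, each column summing to 1000000. CASAVA 1.8.2, STAR and the mm10 build are named in the submitters' processing notes. For STAR's version, the annotation and the counter, the sources used here give nothing.

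GENCODE release M21 gave names, coordinates and exon lengths for 55240 identifiers. After scaling, TPM times exon length was whole, within 0.01 read, for 98.8% to 98.88% of values above 0, and these reads were used for floors and intervals only. Genes with at least 1 TPM in at least 2 libraries were kept (16699). Values were analysed as log2(TPM + 1) in limma (version 3.58.1; R 4.3.3), using 1 mean per group and an intensity trend for the variance, with 4 residual and 4.68 prior degrees of freedom. P-values are two-sided, adjusted by Benjamini-Hochberg over all genes, with a threshold of 0.05. The fit was tested on simulated data. Ratios of the low genes used pooled reads with exact 95% intervals.

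The members and lists were chosen with earlier results of these data known, so members have no p-value. The text names all members, up to 4 genes per list and contrast with the smallest p among those that passed, and Pcsk5, Furin, Smad2, Smad3, Smad4 and Smad7. It also names the 5 genes most like Gdf11, Wfikkn1 and Wfikkn2, leaving out predicted, sex-linked and mitochondrial genes. Not all genes taken by the rule are described, and the markers of anterior tissue are not reported here. Inhbb, Lin28a, Lin28b, Skil in the genotype comparisons and the genes that share exons with members were named outside it, after their values were seen. Alternatives were pseudocounts of 0.1 and 0.5, no filter or one at 5 TPM, median-of-ratios scaling, the libraries of 1 region only, the library number as a block, and leaving out each library or both numbered 159.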

Additional observations from a re-analysis of the deposited data

Results flagged for a closer look

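For Gdf11 the genotype difference had opposite signs in the 2 regions. Both mutant anterior libraries were above the wild type and both mutant posterior libraries below, and the anterior minus the posterior difference was 0.37 ± 0.17 on the log2 scale. Leaving out library 153 of the wild-type posterior group gave 0.20, and leaving out library 156 gave 0.53. In the main fit this difference did not pass the threshold, and it is given as a description. For Wfikkn1 the region difference had opposite signs in the 2 genotypes, with the posterior below the anterior libraries in the wild type and above them in the mutant. The same interaction value was -1.15 ± 0.23, or -0.87 without both libraries numbered 159. It did not pass the threshold in the main fit either.

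For 9 of the 69 tested genes of the pathway lists the genotype effect differed between the regions by limma's test of the difference itself. The difference is anterior minus posterior, with Benjamini-Hochberg adjusted p over all genes. The 6 that the naming rule takes are described here. Cyp26a1 differed by 2.32 (adjusted p = 0.0033), a call kept without each library in turn. Cer1 differed by 2.24 (adjusted p = 0.0058), Tbx4 by -1.87 (adjusted p = 0.0089) and Hoxc11 by -2.56 (adjusted p = 0.0052). Each of the 3 missed the threshold when library 153 of the wild-type posterior group was left out (adjusted p = 0.061 for Cer1, 0.064 for Tbx4 and 0.052 for Hoxc11) or library 156 (0.066, 0.08 and 0.056). Hoxa11 differed by -2.25 (adjusted p = 0.012), lost without library 153 of that group (0.064) and with no filter (0.089). With a pseudocount of 0.1 none of these 4 passed: Cer1 was at 2.18 (adjusted p = 0.055), Hoxc11 at -3.18 (0.08), Hoxa11 at -2.91 (0.067) and Tbx4 at -0.92 (0.35). Tbx4 also missed the threshold with no filter (0.055). Both Hox genes were at or near 0 TPM in the anterior pieces. Tgfb2 differed by -1.14 (adjusted p = 0.031), which was kept in 1 of the 8 fits that left out a library, the one without mutant posterior library 163. It was lost also with no filter (0.11), under median-of-ratios scaling (0.064) and without both libraries numbered 159 (0.057). With 2 libraries in each group, single libraries that stand apart from the rest of their group could not be looked for.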

How the results depend on the processing

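Of 595 alternative values of the members 544 stayed within the spread between replicates, 51 moved further and 0 changed from a passed value to the opposite sign. For pathway genes, only the gene and contrast pairs taken by the naming rule were followed. Of their alternative values 1407 stayed the same, called or not, 176 lost a call, 5 gained one and 26 changed sign. Most of these pairs were taken because they passed in the main fit, which limits how many could gain a call. Leaving out each library in turn gave 1545 to 4563 genes called in the anterior pieces, 383 to 1832 in the posterior, 20 to 209 for the difference of effects, 1182 to 2880 for the region in the wild type and 1732 to 2770 in the mutant. The same fits gave 9 to 22, 10 to 29, 1 to 9, 17 to 32 and 28 to 37 pathway genes, and 2 to 4, 2 to 3, 0 to 0, 1 to 2 and 0 to 1 members. The lowest counts of genes and pathway genes in the posterior pieces came without library 153 of the wild type. The cause was not tested.

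Without the filter, 954 genes passed in the posterior pieces and 55 for the difference of effects, with more genes tested (33409). It left 12 pathway genes in the anterior pieces, 3 for the difference of effects and 1 member for the region in the wild type. A pseudocount of 0.1 left 4 pathway genes for the difference of effects. The filter at 5 TPM, which tested 11850 genes, let 1 member pass for the difference of effects and 1 for the region in the mutant, where median-of-ratios scaling let 2 and the fit without both libraries numbered 159 let 1 pass. The library numbers were not taken as a pairing, since the labels do not say that a number marks 1 embryo and the deviations of same-numbered libraries correlated at 0.14 (mutant) and 0.02 (wild type). In the mutant both libraries numbered 159 held Xist and both numbered 163 Ddx3y. With the replicate block, 115 genes passed for the difference of effects, 2404 for the region in the wild type and 2617 in the mutant, with 7, 30 and 40 pathway genes and 1 member for the region in the wild type.

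The sign changes among the named pathway genes were of small differences that had not passed. Of the members' differences, the following had not passed and took both signs over the alternatives: Tgfbr1 in the posterior pieces (-0.19 to 0.06); Fstl3 (-0.24 to 0.29), Acvr2a (-0.10 to 0.06) and Acvr2b (-0.04 to 0.41) for the difference of effects; Fstl3 (-0.17 to 0.37) and Tgfbr1 (-0.09 to 0.17) by region in the wild type; and Fst (-0.24 to 0.03), Fstl3 (-0.09 to 0.24) and Tgfbr1 (-0.22 to 0.01) in the mutant, where Acvr1b came down to 0.00. Leaving out single libraries gave -0.04 to 0.17 for Pcsk5 in the anterior pieces, and -0.10 to 0.12 for Smad2 and -0.04 to 0.13 for Smad4 in the posterior. For the difference of effects the ranges were -0.05 to 0.17 for Smad2, -0.05 to 0.13 for Smad4, -0.19 to 0.13 for Smad3 and -0.16 to 0.17 for Smad7. For the region in the wild type they were -0.08 to 0.14 for Smad2 and -0.13 to 0.05 for Smad4, and in the mutant -0.08 to 0.01 for Smad2 and -0.22 to 0.10 for Smad3. Median-of-ratios scaling gave -0.05 for Smad2 and -0.02 for Smad4 in the posterior pieces, 0.02 for Smad3 in the difference of effects, 0.05 for Smad4 by region in the wild type and 0.00 for Smad2 in the mutant. Without both libraries numbered 159, Smad2 was -0.03 in the posterior pieces and Smad3 0.20 in the difference of effects. Depth limits Mstn and Wfikkn2, which had at most 12 and 28 reads in a library.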
